A study of Mus musculus with 8 samples.

Results

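Genes of the myelinating oligodendrocyte were followed in mouse cortex and hippocampus that expressed a repeat protein of glycine and arginine. The 9 genes Mbp, Mobp, Mog, Mag, Mal, Cnp, Opalin, Ugt8a and Enpp2 were taken by symbol from a deposited table of 43346 genes, and each symbol named 1 row. Total RNA from cortex with hippocampus was sequenced in 8 mice at 1.5 months of age, 1 library per mouse. In the GFP group, 4 mice expressed green fluorescent protein alone. In the GFP-GR100 group, 4 mice expressed the same protein fused in frame to 100 copies of the glycine-arginine dipeptide, a product of the repeat expansion in C9orf72 that causes frontotemporal dementia and amyotrophic lateral sclerosis. Per the labels, both constructs came from a pAAV-EGFP fusion vector, and each group held 2 females (libraries 1 and 2) and 2 males (libraries 3 and 4). For the promoter, the route and age of delivery, the strain and the cells that expressed the constructs, nothing was stated in the labels. The comparison asks what GFP-GR100 did to expression relative to GFP alone.

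Oligodendrocytes are the glia that wrap axons of the central nervous system in myelin. Precursor cells, marked by Pdgfra, leave the cell cycle, pass through a newly formed stage marked by Gpr17 and Bcas1, and then switch on the genes of compact myelin under the transcription factors SOX10 and MYRF. In the rodent forebrain this programme rises over the first weeks after birth and is strongest in white matter tracts, so the amount of white matter in a dissection can move all these genes together. Mbp encodes myelin basic protein, which holds the cytoplasmic faces of the sheath together, and Mobp another basic protein of compact myelin. Mog lies on the outermost surface of the sheath and Mag on its inner face toward the axon. Mal is a lipid-raft proteolipid of myelin membrane, Cnp an enzyme that keeps cytoplasmic channels in the sheath open, and Opalin a membrane glycoprotein of mature oligodendrocytes. Ugt8a adds galactose to ceramide to make the galactolipids of myelin. Enpp2, or autotaxin, is a secreted enzyme that makes lysophosphatidic acid, and is strongly expressed by the choroid plexus as well as by oligodendrocytes.

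Upstream sequence was available for 7 of the 9 genes in RefSeq (GRCm38.p6), and 4 windows of 250 bases that end at the base before the transcription start are shown because the levels of these genes were correlated across the libraries and the windows differ in letters that SOX proteins or MYRF are known to bind. Capitals mark, on either strand, ACAAAG or ACAATG (SOX) and CTGGCAC or CTGGTAC (MYRF). The Mobp window is chr9:120149492-120149741 (plus strand), Mag chr7:30914864-30915113 (minus strand), Mog chr17:37023399-37023648 (minus strand) and Mal chr2:127656696-127656945 (minus strand). Each is written 5′ to 3′ on the gene's own strand.
Mobp: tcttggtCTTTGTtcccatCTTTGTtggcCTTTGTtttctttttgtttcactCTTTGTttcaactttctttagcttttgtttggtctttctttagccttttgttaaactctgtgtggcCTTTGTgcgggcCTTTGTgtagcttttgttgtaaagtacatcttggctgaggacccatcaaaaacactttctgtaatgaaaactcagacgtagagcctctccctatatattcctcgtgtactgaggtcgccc
Mag: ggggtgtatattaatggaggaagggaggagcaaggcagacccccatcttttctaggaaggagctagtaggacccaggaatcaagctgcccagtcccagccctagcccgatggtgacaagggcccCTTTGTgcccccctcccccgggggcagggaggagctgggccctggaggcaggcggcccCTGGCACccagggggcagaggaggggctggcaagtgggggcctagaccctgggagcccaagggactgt
Mog: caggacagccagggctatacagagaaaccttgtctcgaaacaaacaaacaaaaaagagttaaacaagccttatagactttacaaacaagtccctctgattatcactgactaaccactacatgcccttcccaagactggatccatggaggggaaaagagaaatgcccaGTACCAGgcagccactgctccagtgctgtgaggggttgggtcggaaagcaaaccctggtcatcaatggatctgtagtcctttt
Mal: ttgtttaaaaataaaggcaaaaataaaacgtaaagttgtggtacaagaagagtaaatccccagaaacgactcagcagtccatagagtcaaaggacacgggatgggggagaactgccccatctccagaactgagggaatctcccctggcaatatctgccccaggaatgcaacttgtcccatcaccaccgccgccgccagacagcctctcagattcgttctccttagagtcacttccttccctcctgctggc
The Mobp window held 6 SOX matches, all as CTTTGT, the reverse complement of ACAAAG. Of the 32851 promoter windows of the same length, 1 held 6 matches and none held more, 30 (0.0913%) held 4 or more, and 25.2% held at least 1. The Mobp window was also 43.6% T. The Mag window held 1 SOX match, at position -126 from the start, and 1 MYRF match, at position -68, and the Mog window held 1 MYRF match at position -83. The Cnp window held a SOX match at -167 and a MYRF match at -81, the Opalin window a SOX match at -139, and the Mal and Ugt8a windows neither. No SOX match overlapped a MYRF match in these windows. In all, 4 of 7 windows held a SOX match and 3 of 7 a MYRF match, against 25.2% and 5.93% of all windows. TATAAA or TATATA, also searched on both strands, was found in the Mobp window (1 of 7), against 15.6% of all windows. A match is a run of letters and not a bound site.

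The libraries held between 65880460 and 89113010 counts, and 20987 genes passed the filter on low counts, all 9 myelin genes among them. The 9 genes took between 0.392% and 0.649% of a library's counts, so counting error was small beside the differences between mice. Loci that collect ribosomal RNA reads took between 2.76% and 11.4% of the counts. The dissected tissue weighed between 111.4 and 126.6 mg in the GFP group and between 71.9 and 85.1 mg in the GFP-GR100 group. GFP-GR100 4 stood apart in markers of the thalamus, a neighbouring brain region. The summed level of 15 thalamic neuron genes was 402 CPM (counts scaled by TMM to a common library size) there and ran from 176 to 294 CPM elsewhere. Its level of Tcf7l2, a thalamic transcription factor, was 27.4 CPM against 4.45 to 8.08 CPM in the other libraries. This gene is also on the list of oligodendrocyte lineage transcription factors. Slc17a6, a glutamate transporter of thalamic neurons that is on no oligodendrocyte list, was at 64.6 CPM there and at no more than 34.6 CPM elsewhere, and the summed level of 18 excitatory neuron genes was the lowest of the 8 libraries, 4875 against 5986 to 7097 CPM. For 14 striatal neuron genes GFP-GR100 1 stood apart instead, with a sum of 1866 CPM against 1421 to 1561 CPM elsewhere. GFP 3 was the highest GFP library for 6 of the 9 myelin genes. Results are therefore also given without GFP-GR100 4 and without both GFP-GR100 4 and GFP 3. Both were singled out by levels seen in these data, GFP 3 by the 9 genes themselves. Adjusted p-values from fits without them are therefore descriptions only.

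Of the 9 myelin genes, 2 fell in GFP-GR100 brain, Mal and Enpp2, and none rose. The log2 fold change (GFP-GR100 relative to GFP) was below 0 for 9 of 9 genes, with a median of -0.35 against -0.02 over all genes tested. Among all genes tested, 0.324% fell, 2.19% rose and 54.6% had a log2 fold change below 0. Without adjustment for many tests, 6 of the 9 genes were lower at p under 0.05, against 7.37% of all genes. These were Mal, Enpp2, Mog, Cnp, Mag and Ugt8a. The groups did not overlap for 2 of 9 genes, Mal and Enpp2, and all GFP-GR100 libraries lay below all GFP libraries for 3.03% of all genes. Calls come from edgeR's quasi-likelihood test with sex in the model and Benjamini-Hochberg adjustment over all genes, at an adjusted p under 0.05. In bulk tissue, fewer oligodendrocytes and less RNA per oligodendrocyte cannot be told apart.

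**Figure D1:**
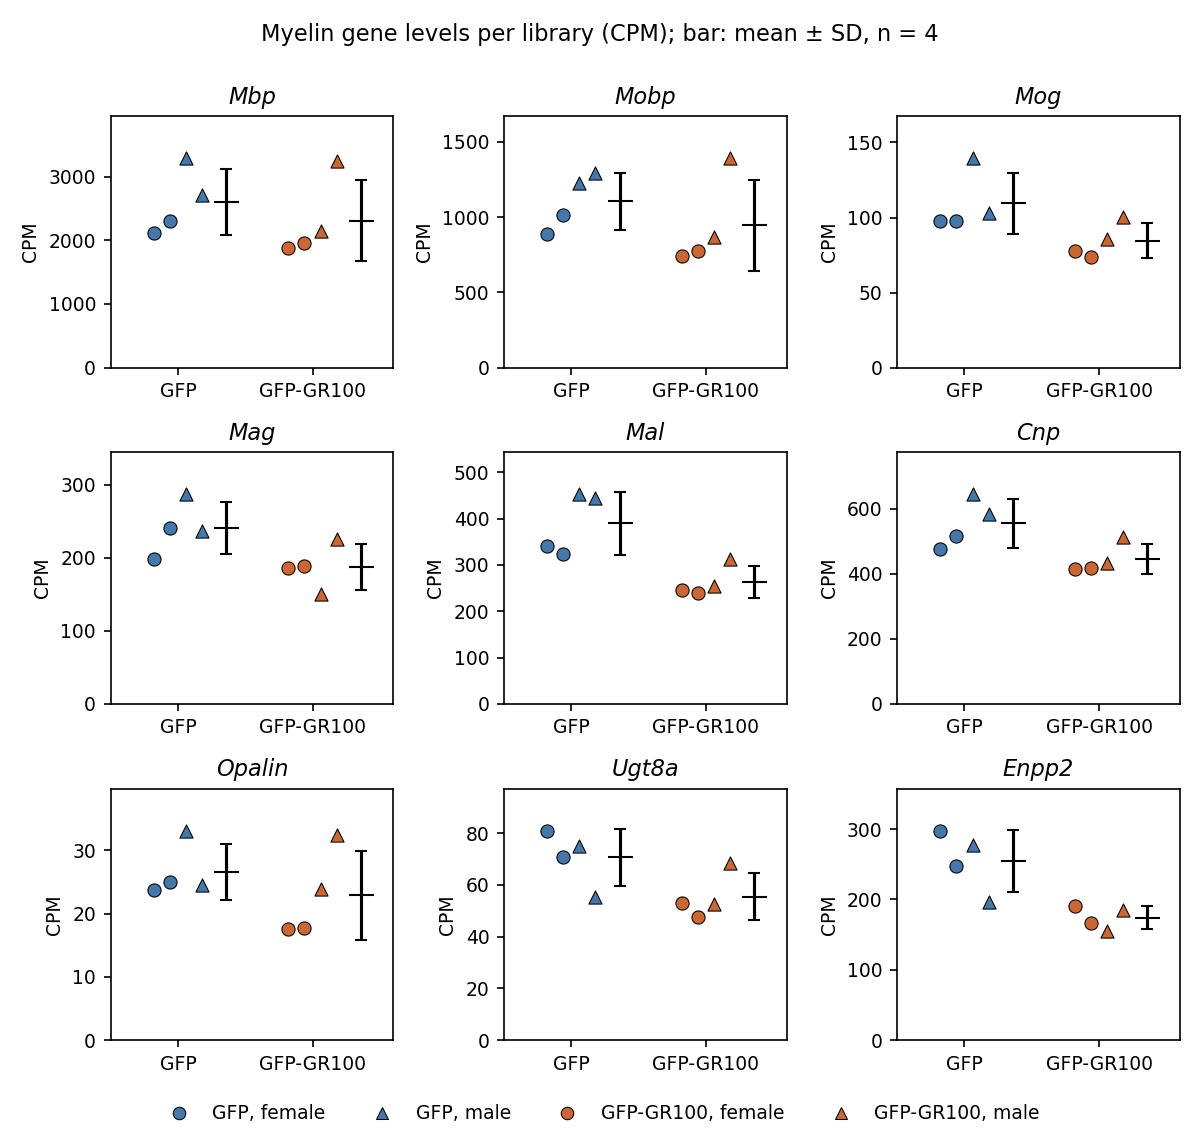
Level of each of the 9 myelin genes in each library, in TMM-scaled CPM on axes that start at 0. Circles are females, triangles males, blue GFP and orange GFP-GR100, with the mean and SD (n = 4) to the right of each group. The groups lie apart for Mal and Enpp2, and GFP-GR100 4, the upper orange triangle, reaches the GFP range for the other 7 genes.

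Mal (chromosome 2, 127633226 to 127656695 on mm10) had the smallest adjusted p of the 9. Its log2 fold change was within 1 SE of that of Enpp2, and Enpp2 had the larger fall in value without GFP 4, GFP-GR100 3 or GFP-GR100 4 and in females. The levels of Mal in GFP libraries 1 to 4 were 340, 323, 452 and 445 CPM, and in GFP-GR100 libraries 1 to 4 they were 245, 239, 255 and 312 CPM. Every GFP-GR100 library was below every GFP library, and in both groups the highest values came from males. The mean fell from 390 ± 68.0 to 263 ± 33.7 CPM (SD, n = 4 each), which is 32.6% lower. The log2 fold change was -0.56 (SE 0.09), with an adjusted p of 0.0047 in edgeR's quasi-likelihood test. The call held in 16 of 17 alternative settings, with adjusted p between 1.0e-06 and 0.067, and was lost without sex in the model. It held when each library was left out in turn. In RPKM, which the authors scaled to all gene counts including the ribosomal loci, the groups met: GFP 1 and GFP 2 had 113 and 114 RPKM, and GFP-GR100 4 had 114 RPKM. Within sex, the log2 fold change was -0.46 in females and -0.66 in males, and the difference between the sexes was not called (adjusted p = 0.557 for the sex by group interaction in edgeR).

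Enpp2 (chromosome 15, 54838898 to 54920146 on mm10) stood at 298, 247, 277 and 196 CPM in GFP libraries 1 to 4. The GFP-GR100 libraries stood at 190, 166, 155 and 185 CPM. The groups did not overlap, but GFP 4 was only just above GFP-GR100 1. The mean fell from 255 ± 44.2 to 174 ± 16.3 CPM (SD, n = 4 each), 31.6% lower, with a log2 fold change of -0.55 (SE 0.12) and an adjusted p of 0.030 in edgeR's quasi-likelihood test. The call held in 10 of 17 settings, with adjusted p from 3.6e-05 to 0.155, and was lost on leaving out GFP 1 (0.084), GFP 3 (0.087), GFP-GR100 1 (0.060), GFP-GR100 2 (0.155) or GFP-GR100 3 (0.128). It was also lost without sex in the model (0.067) and with limma-trend on RPKM (0.105).

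Choroid plexus markers were lower in GFP-GR100 brain, as Enpp2 was. Of 18 choroid plexus genes, 5 fell, against 0.324% of all genes, and none rose. All 18 were lower in value, against 54.6%, and their median log2 fold change was -1.47. The summed level of the list was between 138 and 389 CPM in GFP libraries and between 39.5 and 99.2 CPM in GFP-GR100 libraries. Ttr, the transthyretin gene and the most abundant choroid plexus transcript, was at 274, 152, 322 and 112 CPM in GFP libraries 1 to 4 and at 73.2, 21.3, 41.7 and 24.8 CPM in GFP-GR100 libraries 1 to 4. Most of the summed level was Ttr in every library. Its groups did not overlap, but it missed the threshold (log2 fold change -2.44, SE 0.59, edgeR adjusted p = 0.145). Folr1, a folate receptor of that epithelium, fell by 2.26 on the log2 scale (edgeR adjusted p = 0.0060). Cldn2, its tight junction claudin, fell by 2.57 (0.011), a call lost without GFP-GR100 2, 3 or 4 (up to 0.066). Calml4, a calmodulin-like gene of the list, fell by 2.14 (0.0076). Folr1, Cldn2 and Calml4 were scarce, with means of 2.11, 1.96 and 1.13 CPM in GFP and 0.44, 0.34 and 0.25 CPM in GFP-GR100 libraries. In the GFP group the libraries with the most choroid plexus signal, GFP 3 and GFP 1, also had the most Enpp2. GFP 4 had the least of both. Ugt8a had the same order as Enpp2 there. The ratio of Enpp2 to Ugt8a in RPKM ran from 3.60 to 3.80 in GFP and from 2.79 to 3.69 in GFP-GR100 libraries. In GFP-GR100 libraries 1 to 4 the summed markers were at 99.2, 39.5, 58.7 and 48.3 CPM. There GFP-GR100 3 had more of that signal than GFP-GR100 2 and 4 but the least Enpp2. Enpp2 is a transcript of both cell types, and the part of the choroid plexus in its fall was not tested. Mal did not follow the order of choroid plexus signal: GFP 4, lowest in it among GFP libraries, had 445 CPM of Mal.

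**Figure D2:**
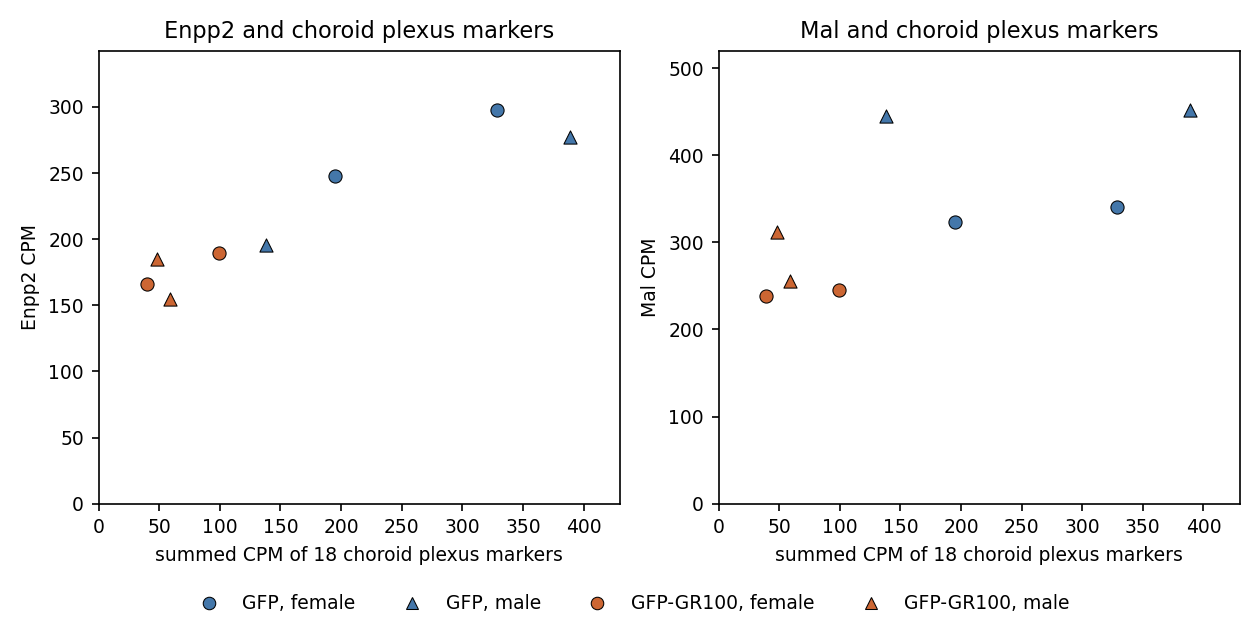
Level of Enpp2 (left) and Mal (right) against the summed level of 18 choroid plexus markers, all in TMM-scaled CPM, 1 point per library. Shapes and colours give sex and group. Enpp2 runs from 155 to 298 CPM and is high where the summed markers reach 195 CPM or more, while Mal is high in GFP 4 at 138 CPM of markers.

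Genes of the sheath surface and of its inner face missed the threshold. Mog, the outer surface glycoprotein, was at 97.6, 97.6, 139.5 and 103.3 CPM in GFP libraries 1 to 4 and at 78.0, 73.8, 85.8 and 100.7 CPM in GFP-GR100 libraries 1 to 4. Only GFP-GR100 4 reached the GFP range. The means were 109.5 ± 20.2 and 84.6 ± 11.8 CPM (SD, n = 4 each), with a log2 fold change of -0.37 (SE 0.10) and an edgeR adjusted p of 0.084. Mag, the adhesion molecule facing the axon, was at 199, 241, 287 and 237 CPM in GFP libraries and at 186, 189, 150 and 227 CPM in GFP-GR100 libraries. Here GFP-GR100 4 lay above GFP 1. Its log2 fold change was -0.36 (SE 0.13, adjusted p = 0.224). Cnp, the enzyme of the non-compact channels, was at 475, 515, 644 and 584 CPM in GFP libraries and at 415, 417, 433 and 514 CPM in GFP-GR100 libraries. Again only GFP-GR100 4 reached the GFP range, and the log2 fold change was -0.31 (SE 0.09, adjusted p = 0.107).

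The basic proteins of compact myelin were the most abundant members and differed least in value over all 8 libraries. Opalin, at -0.25 (SE 0.13), was close to Mobp. In males Opalin (-0.04) and Ugt8a (-0.11) differed less than Mbp (-0.15) and Mobp (-0.16). Mbp was at 2117, 2303, 3287 and 2704 CPM in GFP libraries 1 to 4 and at 1878, 1955, 2151 and 3238 CPM in GFP-GR100 libraries 1 to 4. GFP-GR100 4 was second of all 8 libraries, just under GFP 3. The means, 2603 ± 518 and 2306 ± 632 CPM (SD, n = 4 each), differed by less than their spread, with a log2 fold change of -0.18 (SE 0.13, edgeR adjusted p = 0.504). Mobp was at 886, 1015, 1228 and 1292 CPM in GFP libraries and at 744, 776, 868 and 1391 CPM in GFP-GR100 libraries. GFP-GR100 4 had the highest Mobp level of all 8 mice. The log2 fold change was -0.24 (SE 0.13, adjusted p = 0.389). It was -0.41, with an adjusted p of 0.042, when GFP-GR100 4, picked after its values were seen, was left out. In that fit Cnp was at -0.35 and Opalin at -0.39, so the order of the genes depended on this library.

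The group difference of Opalin and Ugt8a was larger in value among females than among males, and neither gene was called. Opalin was at 23.7, 25.0, 33.1 and 24.5 CPM in GFP libraries 1 to 4 and at 17.6, 17.7, 23.8 and 32.4 CPM in GFP-GR100 libraries 1 to 4. The GFP-GR100 females were below every GFP library, and the GFP-GR100 males lay within the GFP range. Its log2 fold change was -0.25 over all mice (SE 0.13, edgeR adjusted p = 0.382), -0.47 in females and -0.04 in males. Ugt8a was at 81.0, 70.9, 75.1 and 55.4 CPM in GFP libraries and at 53.1, 47.7, 52.6 and 68.5 CPM in GFP-GR100 libraries. The low GFP male, GFP 4, and the high GFP-GR100 male, GFP-GR100 4, made the groups overlap. Its log2 fold change was -0.35 over all mice (SE 0.14, adjusted p = 0.256), -0.59 in females and -0.11 in males.

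None of the 9 genes was called for an effect that differed between the sexes, against 0.0524% of all genes. The smallest p of the 9 was that of Ugt8a, with an interaction of 0.48 on the log2 scale (adjusted p = 0.326, edgeR quasi-likelihood test). Opalin followed with 0.43 (adjusted p = 0.377). The groups were also compared within each sex. Among females 0 of 9 genes fell, against 0.0524% of all genes, with Mal at an adjusted p of 0.112. Among males 1 of 9 fell, Mal (adjusted p = 0.0069), against 3.78% of all genes. All 9 log2 fold changes were below 0 in either sex.

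**Figure D3:**
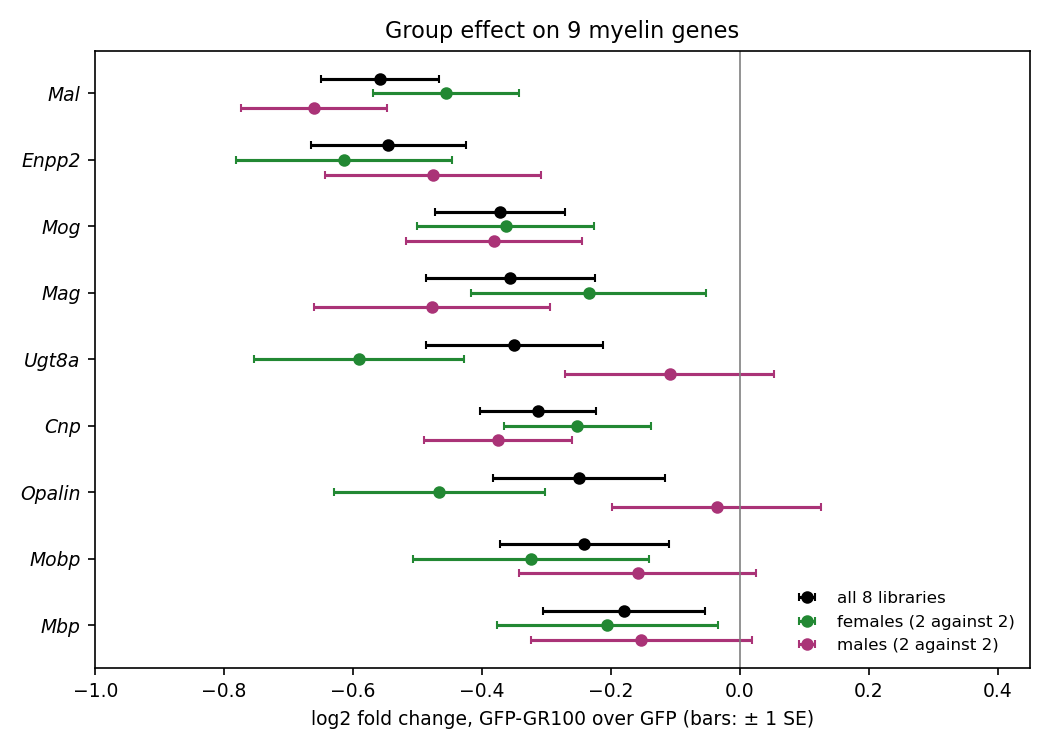
Log2 fold change, GFP-GR100 relative to GFP, for the 9 myelin genes, with bars of 1 SE, over all 8 libraries (black), in females (green) and in males (purple). All points lie below 0, from -0.66 for Mal in males to -0.04 for Opalin in males.

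Males had higher levels of most myelin genes in both groups, but none of the 9 passed the test. Over both groups the median male minus female difference was 0.31 on the log2 scale, against 0.02 over all genes. Among all genes 1.84% were higher in males and 2.34% lower by the same test. The largest differences were 0.49 for Mobp (edgeR adjusted p = 0.055), 0.47 for Mbp (0.055), 0.46 for Opalin (0.067), 0.33 for Mal (0.056) and 0.31 for Mog (0.087). Ugt8a was at 0.02 and Enpp2 at -0.14. Without adjustment 6 of the 9 were higher in males at p under 0.05, against 12.3% of all genes. DESeq2 called 5 of the 9 higher in males, against 5.26% of all genes, and edgeR without a filter on low counts also called 5, against 3.41%. GFP 3 and GFP-GR100 4, the libraries with the highest myelin gene levels in their groups, were both male, and their part in the sex difference cannot be told apart from sex with 2 mice of each sex per group.

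The order of the 9 genes per length was nearly the same in every mouse. RPKM divides by the length listed for each gene, which need not be that of the transcripts expressed, so levels between genes depend on it. In RPKM, Mbp, Mobp, Cnp and Mal held places 1 to 4 in that order, and Ugt8a and Opalin places 8 and 9, in all 8 libraries. Mog, Mag and Enpp2 changed places among themselves. The mean levels in GFP brain were 304 RPKM for Mbp, 167 for Mobp, 149 for Cnp, 138 for Mal, 71.4 for Enpp2, 63.0 for Mog, 58.1 for Mag, 19.2 for Ugt8a and 14.2 for Opalin. In GFP-GR100 brain they were 280, 149, 125, 96.7, 51.3, 50.7, 47.2, 15.8 and 12.7 RPKM in the same order of genes. Means of neighbours in that order differed by less than the SD between mice of either gene for Enpp2 and Mog and for Mog and Mag in both groups and for Mobp and Cnp and for Cnp and Mal in the GFP group. In the GFP-GR100 group, Mobp and Cnp differed by less than the SD of Mobp but more than that of Cnp. There Ugt8a and Opalin differed by less than the SD of Opalin but more than that of Ugt8a.

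Mal was also lower relative to the other 8 genes of the same library. Its log2 RPKM minus the mean of the other 8 was 0.92, 0.80, 0.97 and 1.25 in GFP libraries 1 to 4 and 0.78, 0.78, 0.79 and 0.65 in GFP-GR100 libraries 1 to 4. The groups did not overlap, though GFP 2 lay just above the GFP-GR100 libraries, and Mal was the only 1 of the 9 for which they did not. The means were 0.98 ± 0.19 and 0.75 ± 0.07 (SD, n = 4 each), a difference of -0.23. By the same measure Enpp2 differed by nearly as much (-0.20), and Mbp differed most in the other direction (0.18), both with overlapping groups. The ratio of Mal to Mbp in RPKM was between 0.416 and 0.498 in GFP brain and between 0.292 and 0.394 in GFP-GR100 brain. The ratio of Mal to Cnp was between 0.822 and 0.999 in GFP brain and between 0.750 and 0.797 in GFP-GR100 brain. These ratios were looked at after the values of Mal were known and carry no test. A ratio within a library shows unequal change and not which gene changed.

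Most of the 9 genes varied together across the libraries, and Enpp2 did so less, except with Ugt8a. Over the 36 pairs, Pearson's r of log2 CPM across the 8 libraries ran from 0.22 to 0.96 with a median of 0.74, and with each group's mean removed it ran from -0.21 to 0.96 with a median of 0.68. The closest pairs were Mal and Cnp (0.96), Mbp and Mobp (0.95) and Mog and Cnp (0.94). The loosest were Mobp and Enpp2 (0.22) and Mbp and Enpp2 (0.26). Ugt8a and Enpp2 were close to each other (0.88, and 0.80 with group means removed). With group means removed, Enpp2 stood at -0.21 with Mobp, -0.20 with Mal, -0.14 with Cnp and -0.01 with Mbp, and Ugt8a at 0.09 with Mal. These correlations describe 8 libraries that share groups, sexes and dissections, and they carry no p. The mean of the 9 genes, each centred on its own mean log2 CPM, was 0.06, 0.09, 0.42 and 0.15 in GFP libraries 1 to 4 and -0.30, -0.33, -0.24 and 0.17 in GFP-GR100 libraries 1 to 4. Among the GFP-GR100 mice only GFP-GR100 4 was above 0.

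The genes most like this mean, among 12774 with at least 5 CPM on average, were Aktip (r = 0.99), Nmnat1 (0.97), Desi1 (0.97), Hdac8 (0.96), Neu4 (0.96) and Nsun4 (0.96) over the 8 libraries. With group means removed they were Aktip (0.99), Qdpr (0.99), Tmem125 (0.98), Litaf (0.98), Gjb1 (0.98) and Dusp15 (0.98). Gjb1, the connexin of oligodendrocyte gap junctions, and Tmem125 are on the list of mature oligodendrocyte genes. Genes of the oligodendrocyte lists made up 0.728% of the genes compared and 10 of the 50 closest (9 of 50 with group means removed). With a minimum of 1 CPM they were 0.596% of the genes and 6 of the 50 closest (9 of 50), and 5 and 4 of the 6 genes named by each correlation stayed among the first 6. None of the 11 genes was called between the groups, with the lowest log2 fold changes at -0.31 for Neu4 and -0.25 for both Nmnat1 and Desi1 and the highest at 0.08 for Litaf. Neu4 was called in 1 of 17 settings, without GFP-GR100 4 (edgeR adjusted p = 0.0495). Gjb1 was at 11.2, 13.05, 19.8 and 14.5 CPM in GFP libraries and at 11.1, 9.70, 11.8 and 18.9 CPM in GFP-GR100 libraries, high in GFP 3 and GFP-GR100 4 and overlapping between groups.

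Other genes of mature oligodendrocytes leaned the same way by less, and none passed the test. Of 37 tested outside the 9, 0 rose and 0 fell, against 2.19% and 0.324% of all genes. A log2 fold change below 0 was seen for 31, against 54.6% of all genes, and the median was -0.18. Without adjustment 12 were lower, against 7.37% of all genes, and 1 was higher, against 8.23%. Cd9, a tetraspanin of myelin that other cells also express, had the smallest p and pointed the other way. It was at 44.4, 43.6, 60.7 and 42.6 CPM in GFP libraries and at 56.1, 55.1, 72.7 and 68.1 CPM in GFP-GR100 libraries, with a log2 fold change of 0.39 (SE 0.10, adjusted p = 0.075).

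GFP-GR100 4 weighed on these counts. Without it, 3 of the 9 genes fell (Mal, Enpp2 and Mobp), against 0.312% of all genes, the median of the 9 was -0.42, and 5 of the 37 other mature genes fell. These were Ermn, an actin-associated protein of the late oligodendrocyte (-0.55, adjusted p = 0.0063), Anln (-0.54, 0.021), Jam3 (-0.44, 0.032), Gpr37 (-0.41, 0.031) and Tspan2 (-0.37, 0.042). Without both GFP-GR100 4 and GFP 3, Mal and Enpp2 were again the 2 that fell, against 0.548% of all genes, and the median of the 9 was -0.35. Of the 37 others, Ermn, Anln, Jam3 and Gpr37 then fell and Cd9 rose (0.51, adjusted p = 0.0076). These adjusted p-values come from edgeR fits on 7 or 6 libraries. The libraries left out were picked by levels seen in these data, so these calls carry no support of their own.

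Newly formed oligodendrocytes were the other stage with a called gene. Of 19 genes of committed precursors and newly formed cells, 1 fell, against 0.324% of all genes, and none rose. Of the 19, 16 were below 0, against 54.6%, and the median log2 fold change was -0.19. Gpr17, the receptor that marks that stage, was at 82.1, 86.5, 75.9 and 89.4 CPM in GFP libraries 1 to 4 and at 63.9, 63.5, 61.6 and 71.0 CPM in GFP-GR100 libraries 1 to 4. The groups did not overlap, and GFP-GR100 4 lay near its group here. The mean fell from 83.5 ± 5.88 to 65.0 ± 4.10 CPM (SD, n = 4 each), with a log2 fold change of -0.36 (SE 0.09) and an edgeR adjusted p of 0.045. The call held in 8 of 17 settings, with adjusted p from 0.0069 to 0.218. It was lost without GFP 1, 2 or 4, and without GFP-GR100 1, 2 or 3. Bcas1, the other marker of that stage, was not called (-0.32, edgeR adjusted p = 0.281). Its groups overlapped, at 126 to 192 CPM in GFP and 101 to 188 CPM in GFP-GR100 libraries, with GFP-GR100 4 the highest of its group. Without GFP-GR100 4, a library picked after its values were seen, it was called (-0.49, adjusted p = 0.017). Itpr2 was among the genes of the list that pointed the other way (0.26, adjusted p = 0.350).

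Precursor markers and transcription factors of the lineage gave no called gene. Of 17 precursor genes, 0 rose and 0 fell, 10 were below 0, against 54.6% of all genes, and the median was -0.04. Pdgfra, the growth factor receptor of precursors, was at 58.6, 52.7, 45.7 and 43.7 CPM in GFP libraries and at 52.9, 53.9, 40.1 and 47.7 CPM in GFP-GR100 libraries, which overlap (-0.04, edgeR adjusted p = 0.825). The sign of this difference changed without GFP-GR100 3 and with limma-trend on RPKM. Of 18 lineage transcription factors, 0 rose and 0 fell, 7 were below 0, against 54.6% of all genes, and the median was 0.03. Sox10 was at 33.6, 42.1, 42.8 and 41.7 CPM in GFP libraries and at 36.6, 41.3, 37.3 and 53.2 CPM in GFP-GR100 libraries (0.07, adjusted p = 0.790). Its groups overlapped, and the sign changed without GFP-GR100 4. Myrf, the factor that drives myelin genes directly, ranged from 47.9 to 55.4 CPM and from 38.4 to 67.6 CPM in the groups (-0.04, adjusted p = 0.910, with the sign changing in 4 settings). Olig2 had the smallest p of that list, at -0.35 (adjusted p = 0.141).

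**Figure D4:**
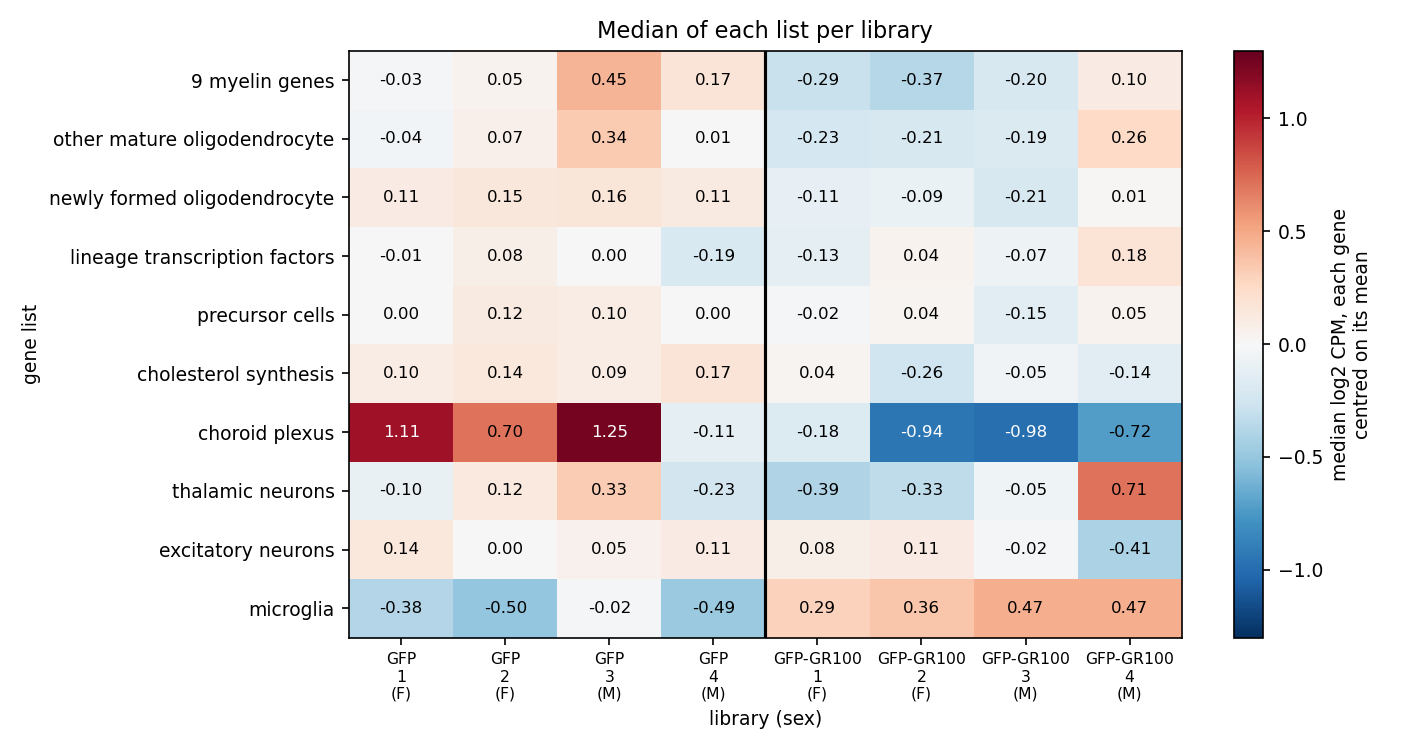
Median over each gene list of the log2 CPM of its genes in each library, each gene centred on its own mean over the 8 libraries; columns are libraries with their sex, and the line divides GFP from GFP-GR100. The row of the 9 myelin genes runs from -0.37 to 0.45, with GFP-GR100 4 (0.10) among the GFP libraries, and the same library is highest for thalamic genes (0.71) and lowest for excitatory neuron genes (-0.41).

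Lipid metabolism was described by lists of enzymes. Of 14 enzymes of myelin galactolipid and long-chain sphingolipid metabolism, 0 rose and 0 fell. Of these 14, 11 were below 0, against 54.6% of all genes, and the median was -0.12. This list mixes synthesis with breakdown: Smpd1, Galc and Arsa break such lipids down. The smallest p was that of Smpd1, acid sphingomyelinase, at -0.31 (edgeR adjusted p = 0.200). Of 19 cholesterol synthesis enzymes, 0 rose and 0 fell, and the median was -0.26. Of them 18 were below 0, against 54.6% of all genes. By edgeR 13 were lower at an unadjusted p under 0.05, against 7.37%. Ebp, a sterol isomerase, had the smallest p. It was at 14.4, 17.7, 20.7 and 18.7 CPM in GFP libraries and at 13.7, 11.8, 13.6 and 14.5 CPM in GFP-GR100 libraries, where GFP 1 and GFP-GR100 4 met at their edges (-0.41, adjusted p = 0.056). The median of this list was low in GFP-GR100 4 (-0.14), where that of the 9 myelin genes was not (0.10). Both medians were lowest in GFP-GR100 2 (-0.26 and -0.37). Neurons and astrocytes also make cholesterol, and the part of each cell type in this difference was not tested.

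Around Enpp2, the receptors and degrading enzymes of lysophosphatidic acid gave no call. Of 9 tested, 3 were below 0, against 54.6% of all genes, and the median was 0.10. Lpar1, a receptor that oligodendrocytes express, was at 37.1, 40.7, 42.8 and 43.0 CPM in GFP libraries and at 29.6, 27.3, 29.3 and 40.2 CPM in GFP-GR100 libraries. Only GFP-GR100 4 reached the GFP range (-0.38, edgeR adjusted p = 0.084). Among 14 genes that differ between subtypes of mature oligodendrocyte, Opalin among them, 14 were below 0, against 54.6% of all genes. Their median was -0.22, and 1 fell, against 0.324%. This was Grm3, a glutamate receptor gene that astrocytes and neurons also express, at 76.4, 59.1, 49.6 and 60.3 CPM in GFP libraries and at 48.6, 46.8, 38.0 and 39.5 CPM in GFP-GR100 libraries. Its groups did not overlap (-0.50, SE 0.10, adjusted p = 0.013). The call held in 13 of 17 settings, with adjusted p up to 0.107, and was lost without sex in the model and without GFP 4, GFP-GR100 2 or GFP-GR100 3. Of 17 genes of the node and its flanks, where myelin meets the axon, 0 rose and 0 fell. Of these 17, 14 were below 0, against 54.6% of all genes, and the median was -0.12. Nrcam had the smallest p (-0.25, adjusted p = 0.285).

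Markers of other cells in the dissection were counted beside these results. Of 9 Schwann cell genes tested, 0 rose and 0 fell, and Gldn had the smallest p (0.73, edgeR adjusted p = 0.133). Of 18 excitatory and 15 inhibitory neuron genes none was called, with medians of -0.09 and -0.06 and the smallest p for Lamp5 (-0.44, adjusted p = 0.068) and Pvalb (-0.29, 0.157). Of 14 striatal and 15 thalamic neuron genes none was called, with medians of 0.07 and 0.05 and the smallest p for Adora2a (0.27, 0.224) and Cbln4 (-0.47, 0.144). Of 14 endothelial genes none was called, with the smallest p for Slco1a4 (0.52, 0.0900). Of 18 microglial genes 14 rose, against 2.19% of all genes, and none fell. Those with the smallest p were Trem2 (1.42, 2.5e-05), Laptm5 (0.93, 3.0e-04) and Cx3cr1 (0.64, 7.3e-04). Of 16 astrocyte genes 1 rose, Gfap (1.37, 4.7e-04), against 2.19% of all genes. All these p-values are edgeR's, adjusted over all genes, and the summed level of microglial genes was between 593 and 877 CPM in GFP and between 1095 and 1261 CPM in GFP-GR100 libraries. The part of such changes in cell makeup in the share of counts left to the 9 myelin genes was not tested.

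The size of the Mal difference moved little with the way the counts were processed. Over the 17 alternatives its log2 fold change lay between -0.60 and -0.48, that of Enpp2 between -0.62 and -0.43, that of Mog between -0.43 and -0.25 and that of Mbp between -0.31 and -0.08. The log2 fold change was below 0 for 9 of 9 genes in each of these settings. DESeq2 called 4 of the 9 lower (Mal, Enpp2, Mog and Cnp), against 0.953% of all genes. Without a filter on low counts edgeR called 5 (Mal, Enpp2, Mog, Mag and Ugt8a), against 1.12%. With the share of ribosomal loci as a covariate it called 3 (Mal, Enpp2 and Cnp), against 1.27%. Mbp and Opalin were called lower in none of the 17.

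**Figure D5:**
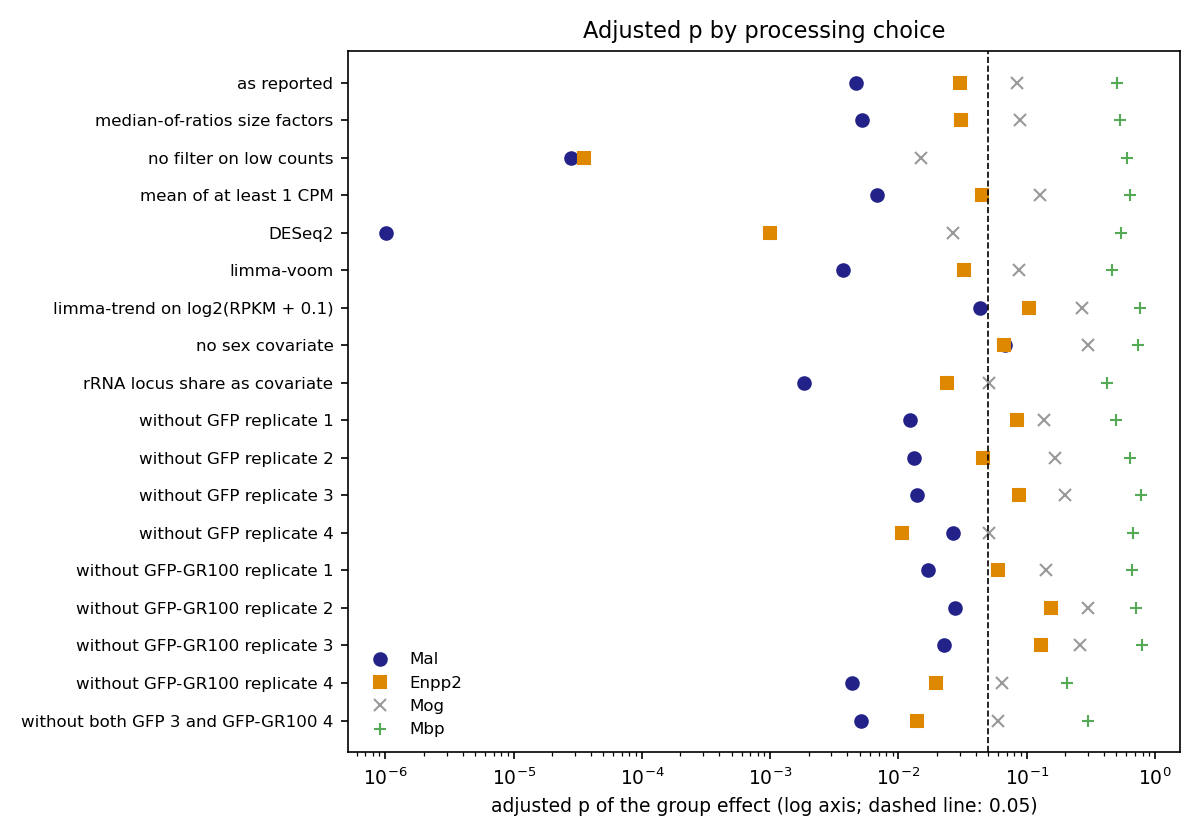
Adjusted p of the group effect (log axis) for Mal, Enpp2, Mog and Mbp as reported and under each of the 17 alternative settings, with the threshold of 0.05 dashed. Mal lies at or left of the line in all settings but the fit without sex (0.067), Enpp2 crosses it, and Mbp stays to its right from 0.205 to 0.792.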

How the data were processed

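Whole-number counts per gene for the 8 libraries were deposited by the authors, who used TopHat2 2.1.0, CASAVA, DESeq2, R 3.4.1 and the mm10 build, per the submitters' processing notes. Which program counted genes, on which annotation and whether by strand, is not stated in these notes or the labels, so reads of overlapping antisense genes cannot be told apart. The deposited RPKM values were scaled by the authors to the sum of gene counts: counts, listed gene lengths and RPKM gave back each total with a ratio of 1.0002. Gene positions and lengths are as deposited, per the file headers. The table paired identifiers with symbols, and no row lacked a gene name.

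Counts were analysed in R 4.3.3 with edgeR 4.0.16 and limma 3.58.1. Genes were kept by filterByExpr (minimum count 10, minimum total 15), scaled by TMM, and tested with the robust quasi-likelihood test with sex and group as terms, and with their product for the interaction, with Benjamini-Hochberg adjustment over all 20987 genes. For log2 CPM a prior count of 0.5 was added. Log2 fold changes are GFP-GR100 relative to GFP, and ± values are SD. Each p-value sets a difference against the spread between these mice that is left after the terms of the model. The alternatives were DESeq2 1.42.0 and its size factors, limma-trend on log2(RPKM + 0.1), limma-voom, no filter, a mean of at least 1 CPM, no sex term, a ribosomal covariate, leaving out each library, leaving out 2 libraries together, and each sex alone (which is not among the 17 counted). The fit was tested on simulated data with 200 of 20767 genes changed between the groups. It recovered 82.8% of changes of 1 and 92.6% of changes of 2 on the log2 scale and called 14 unchanged genes. The log2 fold changes of the myelin genes ran from -0.56 (Mal) to -0.18 (Mbp), and recovery of changes that small was not tested. In a library 3 counts correspond to 0.0337 to 0.0455 CPM.

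The 9 genes and the other gene lists were chosen with earlier results of these data known. Named beside the 9 were, for each list, up to 3 called genes by smallest p or else the gene with the smallest p, then Sox10, Myrf, Olig2 and Pdgfra, and the 6 genes most like the 9 by each correlation; further marker levels, and the genes called without GFP-GR100 4 or GFP 3, were chosen after their values were seen. Of the listed genes, 9630013A20Rik and Lhfpl3 matched no row, and older symbols were matched through GENCODE M21. Promoter windows were searched for the stated letters on both strands. Replicate numbers follow accession order and pair no mice. No protein sequence was used here, and some named genes are not reported here.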

Additional observations from a re-analysis of the deposited data

Results flagged for a closer look

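Within each group of 4 libraries, the gap of the highest or lowest library from its nearest neighbour was compared with Dixon's 95% critical value for 4 values. Of 90 groups tested, over the 9 myelin genes and the other named genes, 13 passed it, where chance alone gives about 1 in 20. That rate is no yardstick here: the genes are not independent, and Aktip, Desi1, Neu4, Tmem125 and Dusp15, which hold 6 of the 13, were named for their likeness to the 9-gene mean, which is high in GFP 3 and GFP-GR100 4. GFP 3 stood above the other GFP libraries for Mog (139.5 CPM) and Opalin (33.1 CPM) among the 9. It did so as well for Cd9 (60.7 CPM), Gfap (332 CPM), Trem2 (18.5 CPM), Aktip (106.8 CPM) and Neu4 (12.4 CPM). GFP-GR100 4 stood above its group for Desi1 (141 CPM), Neu4 (11.98 CPM), Tmem125 (14.7 CPM) and Dusp15 (20.4 CPM). GFP-GR100 3 stood below its group for Gldn (1.37 CPM), and GFP 1 below its group for Sox10 (33.6 CPM). None of these libraries was left out of the values reported, and the cause of the gaps was not tested.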

How the results depend on the processing

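The fall of Mal held in 16 of 17 settings and that of Enpp2 in 10 of 17, and 9 of 9 log2 fold changes were below 0 in each. The number of the 9 genes that fell was 5 without a filter on low counts, 4 with DESeq2 and 1 with limma-trend on RPKM. It was 0 without sex in the model, with Mal and Enpp2 both at an edgeR adjusted p of 0.067. In females alone it was 0, in males alone 1, and on leaving out 1 library from 1 to 3. Over all genes, the number that fell and rose was 361 and 1168 without a filter, 200 and 724 with DESeq2, 267 and 696 with the ribosomal covariate, 11 and 174 in females and 793 and 1166 in males. It fell to 36 (mean of at least 1 CPM), 32 (limma-trend) and 35 (no sex term) for genes called lower, and was 115 without both GFP 3 and GFP-GR100 4. On leaving out 1 library it ran from 19 to 77 lower and from 304 to 514 higher. The median interaction of the 9 genes ran from -0.21 to 0.26 on leaving out 1 library, with the ends set by GFP-GR100 4 and GFP-GR100 3. The number of the 9 called higher in males was 5 without a filter, 3 with a mean of at least 1 CPM, 5 with DESeq2 and from 0 to 3 on leaving out 1 library, with 3 without GFP 4.

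Signs changed for small effects. The group effect turned for Pdgfra (0.022 with limma-trend, and from -0.099 to 0.0017 on leaving out 1 library), Myrf (0.099 in males, and from -0.26 to 0.073), Litaf (-0.051 in females, and from -0.072 to 0.20), Sox10 (from -0.047 to 0.16) and Dusp15 (from -0.023 to 0.16). The interaction turned for Mbp (-0.090 with limma-trend, and from -0.27 to 0.32 on leaving out 1 library), Mobp (from -0.21 to 0.46), Mog (from -0.24 to 0.18), Mag (from -0.57 to 0.021) and Enpp2 (from -0.12 to 0.38). The sex effect turned for Ugt8a (from -0.11 to 0.15). The cause of these differences was not tested. No paired analysis was possible because the labels give no replicate numbers that the groups share. At these depths counting error is small for the 9 genes, and the 4 mice per group limit the precision.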
